A study of Homo sapiens with 8 samples.

Results

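The transcripts described here encode growth factors of the EGF family. The 6 genes listed were TGFA, EREG, AREG, HBEGF, BTC and NRG1, a list of named ligands drawn up with earlier results of these data known. Each gene was represented by the probe set annotated with its symbol alone that had the highest mean log2 intensity over the 8 arrays. Probe sets are the groups of short oligonucleotides with which the array reads a transcript. In this way 5 of the 6 genes were measured, out of 19775 genes in the whole series. AREG, which encodes amphiregulin, had no probe set annotated with its symbol alone in the probe annotation used here, and it was not analysed here.

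The 8 arrays were hybridised with RNA of NCI-H1975, an established human lung adenocarcinoma line that depends on a mutant EGFR. Cells were treated for 24 hours with 10 nM osimertinib plus 1 µM alpelisib, with 10 nM osimertinib, with 1 µM alpelisib or with the DMSO vehicle. Each of these 4 treatments was given with 2 mM L-histidinol and without it, and each of the 8 conditions had 1 array. Osimertinib blocks mutant EGFR covalently, alpelisib blocks the p110 alpha form of PI3K, and L-histidinol is an analog of histidine that hinders the charging of histidine tRNA. All groups are the same cell line, so the values describe this line only, and nothing in the labels says whether the arrays came from separate cultures.

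EGF family ligands are made as membrane-anchored precursors and are released by metalloproteases such as ADAM17 and ADAM10. TGFA, EREG, AREG, HBEGF and BTC bind EGFR, and HBEGF, BTC and EREG also bind ERBB4. NRG1 binds ERBB3 and ERBB4. Bound receptors pair up and signal through RAS and ERK and through PI3K, and in epithelial cells ERK signaling is known to raise the transcripts of several of these ligands in turn.

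Median intensity over all probe sets lay between 21.8 and 22.4 on the 8 arrays. Across genes the arrays correlated at r = 0.974 to 0.996. The 6 epithelial and lung markers lay at log2 intensities of 7.0 to 12.8, whereas the 4 measured blood markers reached at most 5.97, the 4 fibroblast markers 5.14 and the 3 endothelial markers 5.43. Differences below are on the log2 scale, fitted with limma with separate additive terms for L-histidinol and for the drug treatment, and are given ± standard error (2 arrays against 2 for drugs, 4 against 4 for L-histidinol). The error is the departure from additivity, so it holds any interaction as well as noise. A gene was called at a Benjamini-Hochberg adjusted p below 0.05 over all genes. The comparisons with vehicle share the 2 vehicle arrays, so their results are not independent of each other.

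Among the listed EGFR ligands that were measured, TGFA and EREG were those that fell under osimertinib. TGFA encodes transforming growth factor alpha and EREG encodes epiregulin. Their promoter windows (250 bases before to 50 after the transcript start, RefSeq, GRCh38.p14) are shown because both transcripts fell together, and that of HBEGF because it did not. NRG1 also fell with osimertinib, but its promoter was not searched. The windows of BTC, which was not called with osimertinib, and of AREG were searched and are not shown. Whether promoter letters bear on these differences was not tested. The TGFA window is chr2:70553777-70554076 on the minus strand, 1 of 2 TGFA windows in the table. The EREG window is chr4:74364895-74365194 on the plus strand, and the HBEGF window is chr5:140346554-140346853 on the minus strand. Sequences run 5′ to 3′, and capitals mark GGAA, the core bound by ETS factors, on either strand (TTCC where it lies on the other strand) and the TATA box letters TATAAA.
TGFA promoter: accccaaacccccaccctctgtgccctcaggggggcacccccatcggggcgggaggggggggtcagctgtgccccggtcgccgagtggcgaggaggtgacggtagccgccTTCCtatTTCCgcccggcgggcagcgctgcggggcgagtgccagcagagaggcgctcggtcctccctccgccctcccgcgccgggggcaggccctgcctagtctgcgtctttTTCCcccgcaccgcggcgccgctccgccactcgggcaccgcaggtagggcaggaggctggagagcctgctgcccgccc
EREG promoter: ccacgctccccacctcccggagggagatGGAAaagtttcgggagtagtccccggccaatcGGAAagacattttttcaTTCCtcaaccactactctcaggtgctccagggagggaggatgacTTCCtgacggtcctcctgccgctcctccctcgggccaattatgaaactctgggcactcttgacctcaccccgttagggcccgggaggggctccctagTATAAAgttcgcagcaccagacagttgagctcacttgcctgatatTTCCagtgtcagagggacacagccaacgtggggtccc
HBEGF promoter: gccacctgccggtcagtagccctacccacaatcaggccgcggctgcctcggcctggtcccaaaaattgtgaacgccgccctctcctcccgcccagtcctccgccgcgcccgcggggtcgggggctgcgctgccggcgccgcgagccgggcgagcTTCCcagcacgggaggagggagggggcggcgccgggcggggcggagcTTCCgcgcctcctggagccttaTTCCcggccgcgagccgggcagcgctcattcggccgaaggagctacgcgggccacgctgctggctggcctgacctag
GGAA occurred 3 times in the TGFA window shown (7 times in the other TGFA window), 5 times in the EREG window and 3 times in the HBEGF window, and 95.5% of 35116 promoter windows of this length hold it. The BTC window held it 2 times. TATAAA was found in the EREG window and not in those of TGFA and HBEGF, and 11.5% of all windows hold it on either strand. The AP-1 letters TGANTCA (7.71% of windows), the CRE letters TGACGTCA (1.85%), the longer ETS letters CCGGAAGT (4.14%) and the CEBP-ATF letters TGATGNAA (3.62%), each searched on both strands, were not found in these 3 windows. None of these motifs overlapped another in the windows shown, and the matches are a description of letters only.

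TGFA (probe set 205016_at) followed the drug treatment closely. With L-histidinol present its intensity was 64.2 with both drugs, 54.6 with osimertinib and 154 with alpelisib, against 190 with vehicle. Without L-histidinol it was 73.2 with both drugs, 60.1 with osimertinib and 158 with alpelisib, against 210 with vehicle. All 4 arrays with osimertinib lay below all 4 arrays without it, and the ranges did not overlap. How many of all genes separated in this way, or in the similar ways given below, was not counted. Osimertinib lowered TGFA to 0.286 times the vehicle level (-1.80 ± 0.09, adjusted p = 2.7e-07), and the combination lowered it to 0.343 times that level (-1.54 ± 0.09, adjusted p = 2.0e-07). The combination was also below alpelisib alone (-1.19 ± 0.09, adjusted p = 5.9e-06). These 3 calls held in every fit with 1 array left out and in every other setting tried.

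Alpelisib alone lowered TGFA slightly, to 0.780 times vehicle (-0.36 ± 0.09, adjusted p = 0.026). That call ended when either vehicle array (-0.35 and -0.37), either osimertinib array (-0.36 each) or either alpelisib array (-0.30 and -0.42) was left out, and also with the mean of all probe sets (-0.29, adjusted p = 0.094) and without the variance trend (-0.36, adjusted p = 0.058). With probe set 205016_at osimertinib was lowest in order of level, then the combination, alpelisib and vehicle. Osimertinib and the combination did not differ beyond the test's threshold (combination over osimertinib 0.26 ± 0.09, 95% interval 0.06 to 0.46, adjusted p = 0.085). The other 2 TGFA probe sets were lower with the combination than with osimertinib (205015_s_at -0.21 and 211258_s_at -0.22), and neither difference was called.

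EREG (probe set 205767_at) had the same order of treatments as TGFA probe set 205016_at, with a smaller span. With L-histidinol its intensity was 214 with both drugs, 134 with osimertinib and 280 with alpelisib, against 287 with vehicle. Without L-histidinol it was 143 with both drugs, 113 with osimertinib and 236 with alpelisib, against 317 with vehicle. The 4 arrays with osimertinib again lay below the 4 without it. Osimertinib lowered EREG to 0.409 times vehicle (-1.29 ± 0.13, adjusted p = 3.4e-05) and the combination to 0.580 times vehicle (-0.79 ± 0.13, adjusted p = 4.9e-04). Both calls held in all fits with 1 array left out and in every other setting. Alpelisib alone was not called (-0.23 ± 0.13, 95% interval -0.53 to 0.06, adjusted p = 0.33).

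With alpelisib added to osimertinib, EREG was less reduced than with osimertinib alone. The combination stood 0.50 ± 0.13 above osimertinib (adjusted p = 0.030), higher in both L-histidinol settings. This call ended without the osimertinib array (0.50), the L-histidinol plus osimertinib array (0.51), the alpelisib array (0.50), the L-histidinol plus alpelisib array (0.50) or the array with all 3 agents (0.27). It also ended with the mean of both probe sets (0.31, adjusted p = 0.075) and without the variance trend (0.50, adjusted p = 0.0996). Against alpelisib the combination was lower (-0.55 ± 0.13, adjusted p = 8.3e-03), which was not called without the alpelisib array (-0.56), the L-histidinol plus alpelisib array (-0.55) or the array with both drugs (-0.32).

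NRG1, the neuregulin that binds ERBB3 and ERBB4, fell further with both drugs than with either on its brightest probe set. With L-histidinol its intensity (probe set 206343_s_at) was 82.5 with both drugs, 111 with osimertinib and 192 with alpelisib, against 256 with vehicle. Without L-histidinol it was 79.5 with both drugs, 138 with osimertinib and 206 with alpelisib, against 247 with vehicle. No 2 drug treatments overlapped. The combination lowered NRG1 to 0.322 times vehicle (-1.63 ± 0.10, adjusted p = 3.5e-07), and osimertinib lowered it to 0.493 times vehicle (-1.02 ± 0.10, adjusted p = 3.0e-05). Alpelisib alone was just short of the threshold (-0.34 ± 0.10, adjusted p = 0.059).

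The combination was lower than osimertinib (-0.61 ± 0.10, adjusted p = 3.5e-03) and lower than alpelisib (-1.30 ± 0.10, adjusted p = 8.4e-06). Osimertinib alone was lower than alpelisib alone (-0.68 ± 0.10, adjusted p = 1.9e-03), in a comparison added after the other results were known. The difference between the combination and osimertinib was not called without the osimertinib array (-0.45), with the mean of all probe sets (-0.12) or with the mean of those of mean log2 at least 5 (-0.20), and the difference between the single drugs was not called without the alpelisib array (-0.67) or the L-histidinol plus osimertinib array (-0.52). The NRG1 probe set used here and 3 others of the gene carry the name endings _s_at or _x_at. The first marks probes shared by several transcripts and the second possible cross-hybridization. With all such probe sets left out, the remaining brightest one had a mean log2 intensity of 3.21. Its intensities of 7.20 to 10.7 lay below the median of all probe sets. With it every NRG1 call ended (osimertinib over vehicle -0.13, adjusted p = 0.65, and combination over vehicle -0.27, adjusted p = 0.22).

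HBEGF, the heparin-binding ligand that proteases release from the cell surface, was higher with the drug combination and lower with L-histidinol. With L-histidinol its intensity (probe set 203821_at) was 226 with both drugs, 123 with osimertinib and 162 with alpelisib, against 138 with vehicle. Without L-histidinol it was 361 with both drugs, 270 with osimertinib and 185 with alpelisib, against 162 with vehicle. Both combination arrays lay above both vehicle arrays and both alpelisib arrays. The 2 osimertinib arrays lay on either side of all vehicle and alpelisib values.

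The combination raised HBEGF to 1.91 times vehicle (0.93 ± 0.18, adjusted p = 1.2e-03), and it stood above osimertinib by 0.65 ± 0.18 (adjusted p = 0.037) and above alpelisib by 0.72 ± 0.18 (adjusted p = 0.010). The call against vehicle held with each array left out. That against osimertinib ended without the array of both drugs (0.57) or the L-histidinol plus osimertinib array (0.26) and grew to 1.03 without the osimertinib array, and that against alpelisib ended without the array of both drugs (0.64) or the alpelisib array (0.48). With the mean of all 4 probe sets none of the 3 differences was called (0.27 against vehicle with adjusted p = 0.097, 0.15 against osimertinib and 0.24 against alpelisib). That against osimertinib also ended with the mean of probe sets of mean log2 at least 5 (0.46, adjusted p = 0.11) and without the variance trend (0.65, adjusted p = 0.12). Osimertinib alone (0.29 ± 0.18, 95% interval -0.11 to 0.69, adjusted p = 0.29) and alpelisib alone (0.21 ± 0.18, 95% interval -0.19 to 0.61, adjusted p = 0.55) were not called. Without the L-histidinol plus osimertinib array the osimertinib value was 0.67 and called, and without the osimertinib array it was -0.10. L-histidinol lowered HBEGF to 0.680 times the level without it (-0.56 ± 0.13, adjusted p = 9.8e-03), in 4 of 4 drug treatments, and that difference was -0.36 when either osimertinib array was left out and -0.20 and not called with the mean of all probe sets (adjusted p = 0.13).

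BTC, which encodes betacellulin, rose with L-histidinol and was not called in any comparison of drug treatments. With L-histidinol its intensity (probe set 241412_at) was 52.1 with both drugs, 52.0 with osimertinib and 55.3 with alpelisib, against 51.7 with vehicle. Without L-histidinol it was 50.7 with both drugs, 35.1 with osimertinib and 44.1 with alpelisib, against 28.6 with vehicle. On the log2 scale BTC ran from 4.84 to 5.79, below the highest value among the blood markers (5.97). The array medians over all probe sets were 21.8 to 22.4 on the linear scale. The 4 arrays with L-histidinol lay within a narrow span above the 4 without it, whose values were spread more widely. L-histidinol raised BTC to 1.36 times the level without it (0.45 ± 0.12, adjusted p = 0.018). The call ended when either vehicle array (0.31), either osimertinib array (0.41) or either alpelisib array (0.49) was left out, and without the variance trend (0.45, adjusted p = 0.051). The combination over vehicle was not called (0.42 ± 0.16, 95% interval 0.06 to 0.78, adjusted p = 0.062).

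**Figure D1:**
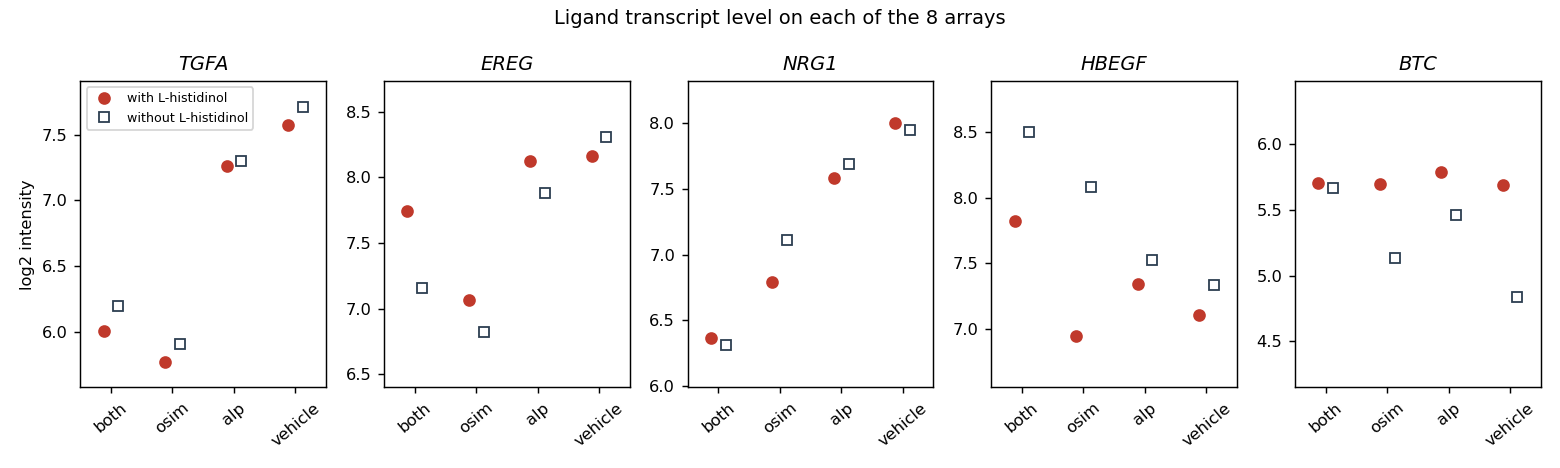
Log2 intensity of the 5 measured ligands (1 panel each, same span on each vertical axis, different offsets) on the 8 arrays, by drug treatment; red circles are arrays with L-histidinol and open squares arrays without it. TGFA, EREG and NRG1 are low wherever osimertinib was present, HBEGF is highest with both drugs and no L-histidinol (361 on the linear scale), and BTC is level across treatments when L-histidinol was present.

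The counts of called ligands were set beside those over all genes. Under osimertinib against vehicle 3 of 5 ligands were lower and 0 higher, with 30.4% of all genes called, 14% lower and 16.4% higher. Under the combination 3 of 5 were lower and 1 higher, with 40.6% of all genes called, 19.2% lower and 21.4% higher. Under alpelisib 1 of 5 was lower and 0 higher, with 11.5% of all genes called, 4.38% lower and 7.08% higher. The combination against osimertinib gave 2 ligands higher and 1 lower, with 13.4% of all genes called, 5.96% higher and 7.41% lower. The combination against alpelisib gave 1 higher and 3 lower, with 29.0% of all genes called, 14.6% higher and 14.4% lower. In osimertinib against alpelisib 3 of 5 were lower and 0 higher, with 11% of all genes called, 5.51% lower and 5.54% higher. In that comparison TGFA differed by -1.45 ± 0.09 (adjusted p = 3.9e-06) and EREG by -1.06 ± 0.13 (adjusted p = 6.0e-04), while HBEGF (0.08 ± 0.18, adjusted p = 0.86) and BTC (-0.21 ± 0.16, adjusted p = 0.51) were not called.

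The median log2 difference of the 5 ligands was -1.02 with osimertinib, -0.23 with alpelisib and -0.79 with the combination, each against vehicle, where the medians over all genes were 0.01, -0.0017 and -0.0010. L-histidinol gave 1 ligand higher and 1 lower, with 20.6% of all genes called, 11.4% higher and 9.17% lower, so its share of 40% stands on 2 genes that went opposite ways. The ligand median with L-histidinol was -0.08, beside -0.0067 for all genes.

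**Figure D2:**
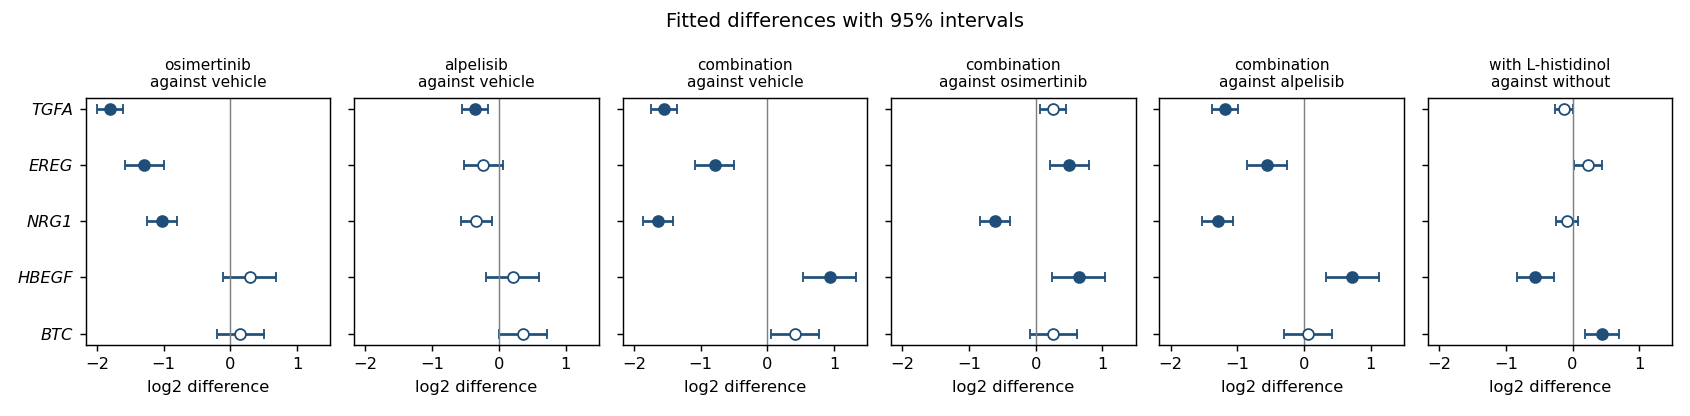
Fitted log2 differences of the 5 ligands (rows) in 6 comparisons (panels), with 95% intervals; filled points passed the adjusted threshold and open points did not. TGFA, EREG and NRG1 lie left of 0 wherever osimertinib was added, and HBEGF lies right of 0 in the 3 comparisons of the combination (0.93, 0.65 and 0.72).

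Whether the effects of osimertinib and alpelisib were additive was tested as their interaction. It was 0.62 ± 0.13 for TGFA (unadjusted p = 4.9e-04 and adjusted p = 0.16 by limma), 0.74 ± 0.19 for EREG (unadjusted p = 2.4e-03, adjusted p = 0.28), 0.43 ± 0.26 for HBEGF (adjusted p = 0.65), -0.09 ± 0.23 for BTC (adjusted p = 0.95) and -0.27 ± 0.15 for NRG1 (adjusted p = 0.62). These values are those of the probe sets used. The other TGFA probe sets gave 0.14 (205015_s_at, adjusted p = 0.86 by limma) and -0.05 (211258_s_at, adjusted p = 0.97). The second EREG probe set gave 0.04 (adjusted p = 0.98). By limma 0 of 5 ligands passed the adjusted threshold and 2 had an unadjusted p under 0.05, with 0.0303% of all genes called, all lower. In a fit with all pairwise interactions, which leaves 1 residual degree of freedom, 3 passed (TGFA, EREG and HBEGF). That fit called 1215 of all 19775 genes for this interaction, where the reported fit called 6.

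The L-histidinol difference of each ligand was then taken within each drug treatment. HBEGF differed by -0.68 with both drugs, -1.13 with osimertinib and -0.19 with alpelisib, against -0.23 with vehicle. EREG differed by 0.58 with both drugs, 0.24 with osimertinib and 0.25 with alpelisib, against -0.14 with vehicle. BTC differed by 0.04 with both drugs, 0.57 with osimertinib and 0.33 with alpelisib, against 0.85 with vehicle. TGFA stayed between -0.19 and -0.04 and NRG1 between -0.32 and 0.05 over the 4 treatments. These are differences between single arrays, without a replicate check. Over all 4 treatments the L-histidinol difference of EREG was not called (0.23 ± 0.09, adjusted p = 0.11), but it was without either vehicle array (0.36, adjusted p = 0.010) and with all 2-way terms (0.23, adjusted p = 7.7e-05). That of TGFA (-0.13 ± 0.06, adjusted p = 0.20) was called with the mean of probe sets of mean log2 at least 5 (-0.24, adjusted p = 0.011).

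The change of the L-histidinol difference with a drug was then tested with the prior variance of the additive fit. For HBEGF the interaction with osimertinib was -0.70 ± 0.14 (unadjusted p = 7.1e-04, adjusted p = 0.19), and its second-brightest probe set gave -0.71 (adjusted p = 0.17). For EREG it was 0.36 ± 0.12 with osimertinib (unadjusted p = 0.014, adjusted p = 0.50) and 0.37 ± 0.12 with alpelisib (unadjusted p = 0.014, adjusted p = 0.95). For BTC it was -0.53 ± 0.16 with alpelisib (unadjusted p = 8.6e-03, adjusted p = 0.95). By limma 0 of 5 ligands passed the adjusted threshold for either interaction, 2 had an unadjusted p under 0.05 in each, and 0% of all genes were called. With the prior estimated from the interaction fit itself, HBEGF and EREG passed for osimertinib and EREG for alpelisib. With that prior 896 of all 19775 genes were called for the interaction with osimertinib and 278 for that with alpelisib.

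**Figure D3:**
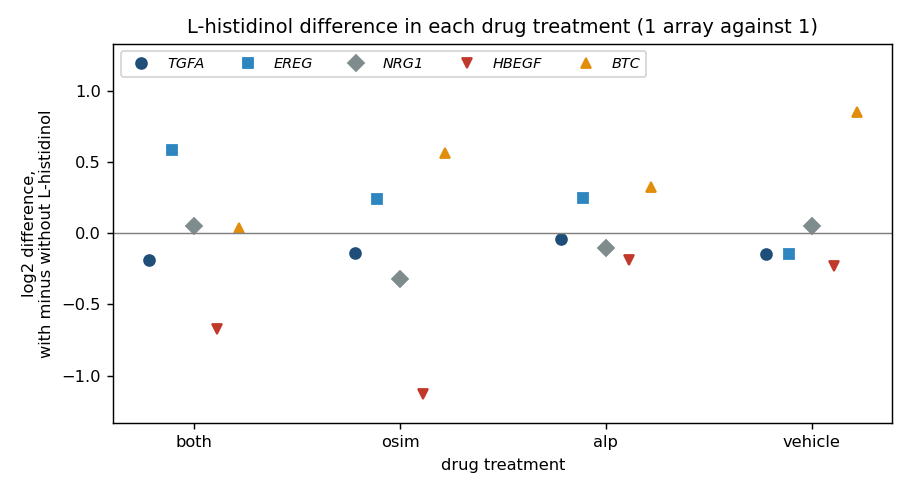
Log2 difference with minus without L-histidinol for each ligand (symbols) in each drug treatment, 1 array against 1. HBEGF reaches -1.13 with osimertinib and -0.68 with both drugs, and BTC runs between 0.04 with both drugs and 0.85 with vehicle.

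Over the 8 arrays TGFA correlated with EREG at r = 0.89 (Spearman rho 0.93) and with NRG1 at r = 0.88 (rho 0.76), and EREG with NRG1 at r = 0.69 (rho 0.74). HBEGF correlated with the other 4 at r between -0.60 and -0.09, and BTC with the other 4 at r between -0.38 and -0.06. These 8 points share the treatments and are given as a description. Among 2444 other genes with a mean log2 of at least 5 and a range of at least 1 (2445 for BTC), the 3 most like TGFA were ARHGAP22 (r = 0.990, rho 0.976), SLC45A3 (r = 0.985, rho 0.929) and UBASH3B (r = 0.984, rho 0.929). Those most like EREG were TNFRSF10A (r = 0.953, rho 1.0), HAS2 (r = 0.951, rho 0.905) and the ERK phosphatase DUSP5 (r = 0.950, rho 0.810).

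The genes most like NRG1 were BRI3BP (r = 0.997, rho 1.0), the replication licensing factor CDC6 (r = 0.995, rho 0.976) and CENPV (r = 0.991, rho 0.952). HBEGF had CACNA1A (r = 0.954, rho 0.952), TTLL11 (r = 0.938, rho 0.952) and CERS4 (r = 0.938, rho 0.881) nearest to it. BTC had TMEM45B (r = 0.987, rho 0.881), GSAP (r = 0.936, rho 0.929) and ADTRP (r = 0.935, rho 0.810). EPGN, EREG, AREG and BTC follow each other as protein-coding genes on human chromosome 4 in RefSeq. Of these neighbours EREG fell with osimertinib, and BTC was at 0.15 ± 0.16 and not called (95% interval -0.21 to 0.51, adjusted p = 0.57).

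Among the receptors of these ligands, osimertinib raised 2 of 4 and lowered 1, where 16.4% of all genes rose and 14% fell. ERBB3, the kinase-impaired receptor that binds NRG1, rose by 1.17 ± 0.07 (adjusted p = 1.2e-06) and the ligandless partner ERBB2 by 0.96 ± 0.07 (adjusted p = 3.2e-06), while EGFR changed by -0.54 ± 0.07 (adjusted p = 9.5e-05). With both drugs ERBB3 rose by 1.94 ± 0.07 (adjusted p = 1.4e-08), so NRG1 and its receptor moved in opposite directions in that comparison. ERBB4 lay at a mean log2 of 3.24 and was not called with osimertinib (-0.22 ± 0.13, adjusted p = 0.26). Of the other EGF family ligand genes, 4 of 5 were measured, and with osimertinib 0 of the 4 were called by limma. EGF itself, at a mean log2 of 3.96, rose with the combination (0.63 ± 0.15, adjusted p = 4.3e-03), a call that ended without the array of both drugs (0.42).

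Of 9 genes of ligand shedding, 3 rose and 1 fell with osimertinib, where 16.4% of all genes rose and 14% fell. RHBDF1, which encodes an inactive rhomboid that guides ADAM17, rose by 0.70 ± 0.08 (adjusted p = 8.4e-05), the protease ADAM10 by 0.40 ± 0.07 (adjusted p = 7.3e-04) and the protease ADAM17 by 0.33 ± 0.08 (adjusted p = 5.9e-03). The ADAM17 call ended without the osimertinib array (0.35) or the L-histidinol plus osimertinib array (0.31). The gene that fell, named after its value was seen, was the paralog RHBDF2 (-0.32 ± 0.10, adjusted p = 0.034), whose call ended without the vehicle array (-0.16), either osimertinib array (-0.24 and -0.40) or either alpelisib array (-0.32 each) and without the variance trend (-0.32, adjusted p = 0.068). ADAM17 also rose with L-histidinol (0.36 ± 0.05, adjusted p = 9.1e-04), as the only called gene of the shedding list. Of 10 genes of receptor feedback and degradation 1 rose with osimertinib, the ubiquitin ligase CBLB (1.23 ± 0.11, adjusted p = 1.4e-05). With L-histidinol 4 of those 10 rose, among them the EGFR inhibitor ERRFI1 (0.47 ± 0.08, adjusted p = 1.4e-03), and 1 fell, where 20.6% of all genes were called. Of these 5 calls, that of the ubiquitin ligase CBL (0.30 ± 0.08) ended without either osimertinib array (0.25) or either alpelisib array (0.28) and without the variance trend. That of the adaptor GRB2 (-0.17 ± 0.05), the gene that fell, named after its value was seen, ended without either vehicle array (-0.12), either osimertinib array (-0.17) or either alpelisib array (-0.17) and without the variance trend.

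ERK output genes, which report the activity of the kinase cascade below EGFR, fell in 14 of 14 cases with osimertinib, with a median of -1.75, where 14% of all genes fell. The smallest fall, that of the feedback inhibitor SPRY2 (-0.43 ± 0.11), named after its value was seen, was not called without the L-histidinol array (-0.38) or the L-histidinol plus osimertinib array (-0.38). The largest falls in the list were those of DUSP6, which encodes a phosphatase of ERK (-3.99 ± 0.18), of the ETS factor ETV5 (-3.27 ± 0.17) and of the AP-1 subunit FOSL1 (-2.89 ± 0.09). With alpelisib 1 of 14 rose and 1 fell, where 7.08% of all genes rose and 4.38% fell, and the median was -0.0069. The transcription factor EGR1 rose (0.93, adjusted p = 0.033), which was not called without the vehicle array (0.51) or either alpelisib array (1.22 and 0.64), with the mean of probe sets (0.78) or of those with a mean log2 of at least 5 (0.98), or without the variance trend. FOSL1 fell (-0.39, adjusted p = 0.013), which was not called without the L-histidinol array (-0.30) or either alpelisib array (-0.43 and -0.36) or without the variance trend. With the combination 13 of 14 fell, median -1.40, where 19.2% of all genes fell. In the combination against osimertinib 3 of 14 rose, namely DUSP4 (0.58 ± 0.10, adjusted p = 3.4e-03), IER3 (0.55 ± 0.07, adjusted p = 7.3e-04) and DUSP5 (0.44 ± 0.08, adjusted p = 5.3e-03), and FOSL1 fell (-0.75 ± 0.09, adjusted p = 5.2e-04). Of all genes 5.96% rose and 7.41% fell in that comparison. The DUSP5 call ended without either osimertinib array (0.38 and 0.49), and the DUSP4 call without the L-histidinol plus osimertinib array (0.58). EREG differed by 0.50 and TGFA by 0.26 in the same comparison, the first called and the second not.

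**Figure D4:**
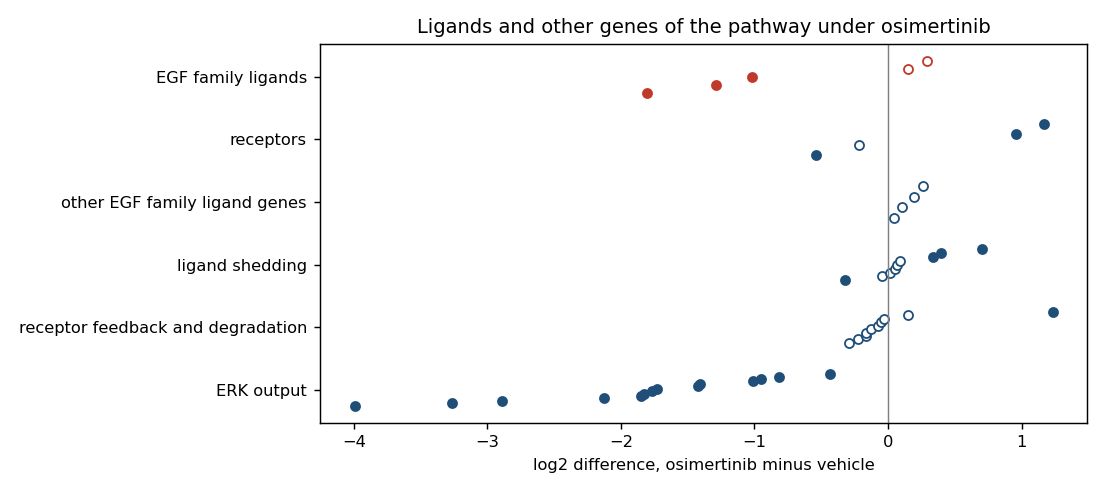
Log2 difference, osimertinib minus vehicle, of the 5 measured ligands (red, top row) and of the measured genes of 5 other lists of the pathway; filled points were called. The 14 ERK output genes all lie left of 0 with TGFA, EREG and NRG1, while ERBB2 and ERBB3 lie near 1.

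The 5 ligands had 17 probe sets in all, and they were also fitted one by one, with p-values adjusted over all probe sets that have 1 symbol. For TGFA, probe set 205015_s_at also fell with osimertinib (-0.94, adjusted p = 3.1e-05) and with the combination (-1.15, adjusted p = 1.9e-06), and it fell with L-histidinol (-0.34, adjusted p = 7.1e-03), where the brightest probe set was not called (-0.13, adjusted p = 0.21). The third TGFA probe set, 211258_s_at, was not called with osimertinib (-0.36, adjusted p = 0.18) and fell with the combination (-0.58, adjusted p = 0.019). For NRG1, 206237_s_at and 208230_s_at fell with osimertinib (-0.69 and -0.54) and with the combination (-0.70 and -0.51). On these probe sets the combination against osimertinib was not called (-0.014 and 0.026), so they did not show the further fall of the brightest one. For HBEGF, 38037_at rose with the combination (0.59, adjusted p = 0.013) and fell with L-histidinol (-0.51, adjusted p = 9.6e-03). It was not called for the combination against osimertinib (0.28, adjusted p = 0.36) or against alpelisib (0.46, adjusted p = 0.064).

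The dimmer probe sets showed little. The second EREG probe set, at intensities of 15.5 to 25.7, was not called with osimertinib (-0.34, adjusted p = 0.13). The 2 remaining HBEGF probe sets lay at 6.93 to 17.3, below the median of all probe sets, and were not called in any of these comparisons. For BTC the second probe set, 207326_at, rose with L-histidinol as well (0.37, adjusted p = 0.016) and went the other way with the combination, at -0.21 (adjusted p = 0.29).

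**Figure D5:**
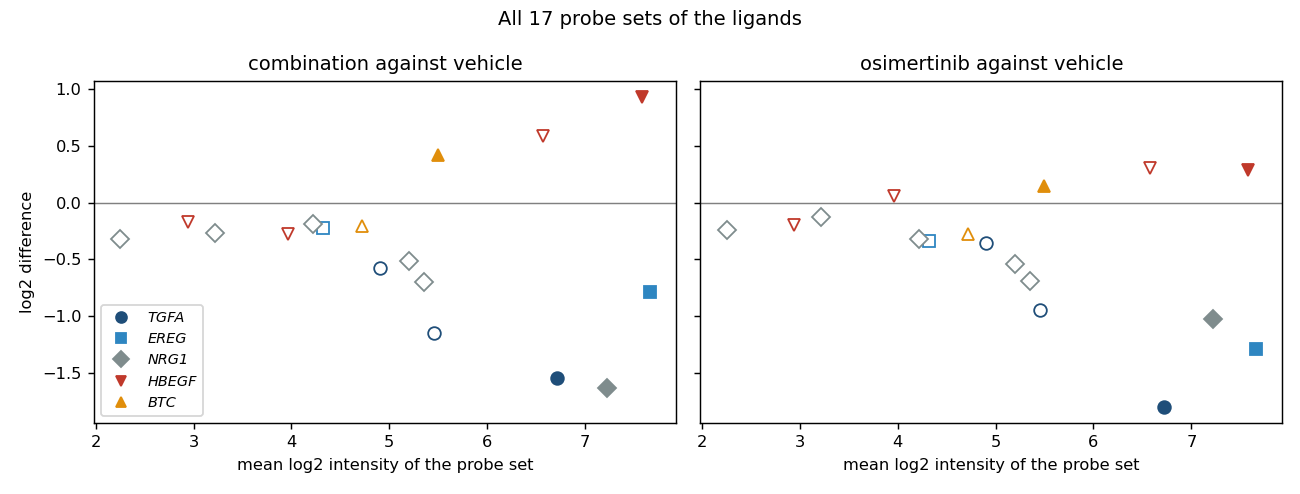
Log2 difference of each of the 17 ligand probe sets with the combination (left) and with osimertinib (right), both against vehicle, plotted against the probe set's mean log2 intensity; filled symbols are the probe sets used. Probe sets with a mean log2 under 4.5 lie within 0.4 of 0, and the lowest points are the TGFA and NRG1 probe sets used (-1.54 and -1.63) with the combination and the TGFA and EREG probe sets used (-1.80 and -1.29) with osimertinib.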

How the data were processed

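The 8 arrays (Affymetrix U133 Plus 2.0) each read RNA of NCI-H1975 cells. The deposited values are linear intensity per probe set, made by the authors with RMA and affy per the submitters' processing notes (versions not given in the sources used here). RMA shrinks the differences of dim probe sets. The log2 of each deposited intensity was taken, with no further scaling. Control probe sets (62) and those with several symbols (1801) or none in the probe table (11721) were set aside, which left 41091 probe sets of 19775 genes.

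Fits used limma 3.58.1 in R 4.3.3 with an L-histidinol and a 4-level drug term (3 residual and 8.08 prior degrees of freedom, variance trend). Interactions with L-histidinol used all 2-way terms (1 residual degree of freedom) and the additive fit's prior. P-values measure only the spread between these arrays, whose number limits the precision. Scripts were tested on simulated data. Tables and figures were made with Python 3.11.15, numpy 2.4.6, pandas 2.3.3 and matplotlib 3.10.9.

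Every member was named. In the pathway lists up to 3 called genes per list and comparison could be named, and 3 genes per member by likeness. The motifs TATAAA and GGAA, the comparison of the single drugs and the mean over brighter probe sets were added after values had been seen. Members and lists were chosen with earlier results of these data known.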

Additional observations from a re-analysis of the deposited data

How the results depend on the processing

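Of 20 calls on the ligands, 12 held in every fit with 1 array left out, and 7 of these also in every other setting. With the mean of all probe sets 1 ligand was called for L-histidinol, 0 for alpelisib and 0 for the combination against osimertinib. In that setting the sign turned for BTC with osimertinib (-0.061), BTC in the combination against alpelisib (-0.0072), BTC in the departure of the drugs from additivity (0.054), TGFA in the combination against osimertinib (-0.057), NRG1 (0.112) and TGFA (0.011) in the interaction of L-histidinol with osimertinib, and EGFR with L-histidinol (-0.0029). With the mean of probe sets of mean log2 at least 5, a setting chosen after seeing the data, 1 ligand was called in the combination against osimertinib, and NRG1 turned to 0.047 in the departure from additivity and to 0.125 in the interaction of L-histidinol with osimertinib. Without probe sets that carry the name endings _s_at or _x_at NRG1 turned to 0.088 with alpelisib and to 0.171 in that interaction. Without the variance trend 1 ligand was called for L-histidinol, 0 for alpelisib and 1 for the combination against osimertinib. For alpelisib 2 were called with arrays centred on their median and 2 among genes of mean log2 at least 5. With all 2-way terms 5 ligands were called for alpelisib and 3 for the departure from additivity, and with that fit's own prior 2 for the interaction of L-histidinol with osimertinib and 1 with alpelisib. With 1 array left out, the ligands called numbered 1 to 2 for L-histidinol (without either vehicle array EREG was called at 0.36 and BTC was not), 0 to 2 for alpelisib, 1 to 3 for the combination against osimertinib and 2 to 4 against alpelisib. Some differences that were not called changed sign when 1 array was left out. NRG1 ran between -0.12 and 0.00026 for L-histidinol, BTC between -0.12 and 0.42 for osimertinib, HBEGF between -0.096 and 0.67 for osimertinib, EREG between -0.48 and 0.019 for alpelisib, and HBEGF between -0.034 and 0.46 for alpelisib. BTC ran between -0.0045 and 0.54 for the combination against osimertinib, between -0.21 and 0.33 against alpelisib and between -0.36 and 0.18 in the departure from additivity, and HBEGF between -0.31 and 0.46 for osimertinib against alpelisib. Over all 19775 genes, calls numbered 1222 for alpelisib and 1646 for the combination against osimertinib with the mean of all probe sets (2267 and 2643 in the reported fit), 779, 1017 and, for osimertinib against alpelisib, 1042 (reported 2185) without the variance trend, and 5022, 5194 and 4670 with all 2-way terms. That fit called 6476 genes for L-histidinol (reported 4069) and 1215 for the departure from additivity (reported 6), and its own prior gave 896 and 278 for the interactions of L-histidinol with osimertinib and alpelisib (reported 0 each). With 1 array left out the lowest counts were 175 for alpelisib, 508 for the combination against osimertinib, 452 for osimertinib against alpelisib, 2160 for L-histidinol, 2968 for the combination against alpelisib (reported 5735) and 3755 for osimertinib (reported 6011), and the departure from additivity gave 0 to 68. The cause of these changes was not tested. No paired analysis was possible because the labels give 1 array per condition and no replicate numbers. The interactions of L-histidinol could not be fitted with 1 array left out, which leaves 0 residual degrees of freedom.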
